A study of Mus musculus with 20 samples.

Results

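Small nucleolar RNA (snoRNA) host genes were followed through 4 groups of mouse abdominal aorta. The 8 genes are Gas5, Snhg1, Snhg3, Snhg5, Snhg6, Snhg8, Snhg12 and 1110038B12Rik, out of 43422 genes in the expression tables. They were chosen as noncoding snoRNA hosts with earlier results of these data known. Of them, 1110038B12Rik was selected on its measured values, being among the top genes of the angiotensin II (Ang II) response of the knockouts. That contrast is therefore given for the 8 genes as a description with no test. Each group held 5 mice of the C57BL/6 strain (C57Bl/6NCrl in the methods of the study), labelled as 6 months old: wild type (WT) mice infused with saline, WT mice infused with Ang II, lysyl hydroxylase 1 knock out (Plod1-/-) mice infused with saline, and Plod1-/- mice infused with Ang II. Infusion ran for 14 days through subcutaneous osmotic pumps, and Ang II was given at 1000 ng/kg per minute. Plod1 codes for lysyl hydroxylase 1, which modifies collagen, and Ang II is a vasoconstrictor peptide used to provoke aneurysm. By the methods of the study the animals were male littermates from Plod1+/- parents, so the deletion was carried in every tissue, and the age at pump implantation was younger than the labelled age. RNA-seq libraries of whole abdominal aorta were summarised as FPKM, which scales the fragments assigned to a gene by transcript length and library size.

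snoRNAs are short nuclear RNAs that guide chemical marks onto ribosomal RNA. C/D box snoRNAs direct methylation of ribose and H/ACA box snoRNAs direct conversion of uridine to pseudouridine. In mammals most of them are cut out of the introns of host genes. Some hosts code for ribosomal proteins and translation factors, and others, such as these 8, make a spliced RNA with no long reading frame. The spliced RNA of such noncoding hosts often begins with a terminal oligopyrimidine (TOP) run, which ties translation to growth signals, and is often short-lived because translation of a short frame exposes it to nonsense-mediated decay. The level of the spliced RNA is therefore not a measure of the snoRNAs.

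The hosts carried 29 annotated snoRNAs (GENCODE, build GRCm38), all 29 within an intron of at least 1 transcript. Of the 29, 27 also overlapped an exon of another transcript of the same host. The gene values can therefore include forms that keep such an intron. Gas5 (chromosome 1, positions 161034422 to 161038539, plus strand) held 9 of the snoRNAs, and its transcript with most exons has 12. Snhg1 (chromosome 19, 8723475 to 8726443, plus strand) held 8, including Snord22. Snhg12 (chromosome 4, 132308623 to 132311024, plus strand) held 4, and Snhg3 (chromosome 4, 132348014 to 132353686, minus strand) held Snora73a and Snora73b. Snhg5 (chromosome 9, 88521050 to 88522929, minus strand) held Snord50a and Snord50b. Snhg6 (chromosome 1, 9941959 to 9944118, minus strand) held Snord87, and Snhg8 (chromosome 3, 123507552 to 123508404, minus strand) held Snora24. 1110038B12Rik (chromosome 17, 34950238 to 34952471, minus strand) lies in the class III region of the major histocompatibility complex and held Snord52 and Gm25744. The tables list 2 of the 29 snoRNAs, Snord87 and Snora16a, and the libraries were not made for RNAs of this size, so the guide RNAs themselves were not analysed here.

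The snoRNAs of the 3 hosts that stood highest in Ang II-infused Plod1-/- mice relative to Ang II-infused WT mice are shown to make plain what these genes carry. All 5 are of the C/D type by sequence. Capitals mark the C box (TGATGA within the leading 20 bases) and the D box (CTGA within the closing 20 bases), both sought on the snoRNA's own strand. Both boxes in this exact form were found in 18 of the 29 snoRNAs of the 8 hosts (62.1%) and in 20.5% of the 1507 snoRNAs annotated in the genome.
Snord52, in 1110038B12Rik, chr17:34950952-34951017, minus strand: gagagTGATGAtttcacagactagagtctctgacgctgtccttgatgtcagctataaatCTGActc
Gm25744, in 1110038B12Rik, chr17:34952013-34952075, minus strand: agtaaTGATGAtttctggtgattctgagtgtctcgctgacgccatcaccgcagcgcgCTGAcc
Snord50a, in Snhg5, chr9:88521529-88521600, minus strand: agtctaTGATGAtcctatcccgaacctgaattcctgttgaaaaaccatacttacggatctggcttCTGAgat
Snord50b, in Snhg5, chr9:88521797-88521868, minus strand: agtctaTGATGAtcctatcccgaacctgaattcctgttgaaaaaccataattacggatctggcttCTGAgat
Snord87, in Snhg6, chr1:9942463-9942549, minus strand: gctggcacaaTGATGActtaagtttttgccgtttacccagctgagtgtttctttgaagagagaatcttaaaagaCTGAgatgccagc
Snord50a and Snord50b are each 72 bases long and differ at 1 base, C50A counted from 1 at the snoRNA's leading end, with Snord50a given before Snord50b.

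The start sites are shown because the hosts moved together in part and because a TOP run at the start is the feature that such genes are known for. RefSeq start sites (build GRCm38.p6) were found for 7 of the 8 hosts, without Snhg6. Each line holds 20 bases before and 50 bases from the annotated start, and capitals mark a C followed by at least 4 bases that are each C or T, beginning within 5 bases of the start and sought on the gene's strand only. Such a run stood at a start of 5 of the 7 hosts, against 21.2% of 27025 genes in the same table and 22.2% of the 27 protein-coding hosts that it holds.
1110038B12Rik, chr17:34952419-34952488, minus strand: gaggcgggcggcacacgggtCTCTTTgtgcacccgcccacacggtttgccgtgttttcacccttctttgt
Gas5, chr1:161035146-161035215, plus strand: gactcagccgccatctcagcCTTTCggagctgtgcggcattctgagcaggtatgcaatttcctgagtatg
Snhg8, chr3:123508287-123508356, minus strand: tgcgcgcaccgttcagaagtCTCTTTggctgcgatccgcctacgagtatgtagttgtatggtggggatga
Snhg12, chr4:132308658-132308727, plus strand: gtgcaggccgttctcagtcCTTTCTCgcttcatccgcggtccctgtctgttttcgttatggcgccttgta
Snhg3, chr4:132353637-132353706, minus strand: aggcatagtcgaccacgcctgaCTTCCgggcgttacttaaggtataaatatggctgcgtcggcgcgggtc
Snhg1, chr19:8723467-8723536, plus strand: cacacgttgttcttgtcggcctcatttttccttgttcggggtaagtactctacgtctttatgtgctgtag
Snhg5, chr9:88522848-88522917, minus strand: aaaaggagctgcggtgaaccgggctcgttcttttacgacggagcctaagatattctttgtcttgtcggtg
The run began at the annotated base or next to it in Gas5, Snhg8, Snhg12 and 1110038B12Rik, and no run of this form fell within 5 bases of the annotated start of Snhg1 or Snhg5. Gas5 and 1110038B12Rik have a further annotated start each, without a run for Gas5 and with the same run for 1110038B12Rik. Snhg12 has the run and differed little between genotypes under Ang II. Snhg5 has none within 5 bases of its annotated start and differed most among the tested hosts together with Snhg6, which has no start entry here. The search depends on where the start is annotated. The list of protein-coding hosts includes genes with TOP messenger RNAs, such as Eef1b2 and Rack1, yet its share was near that of all genes. The search may therefore miss TOP starts, and the shares do not show that protein-coding hosts lack them. Whether the run bears on the response was not tested.

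The libraries had limits that bear on these values. The tables hold FPKM and not counts, so the depth is unknown and no counting interval can be given. Plod1 was at 22.8 FPKM or more in the 10 WT libraries and at 0.0415 or less in the 10 Plod1-/- libraries. Although the study used male mice, RNA of Xist, which female cells make from an X chromosome, stood at 15.1 FPKM in Plod1-/- saline mouse 5 and at 7.93 in Plod1-/- Ang II mouse 1, against 0.0328 or less in the other 18. Xist was singled out after its values were seen. The summed FPKM of 8 smooth muscle markers was 14200 to 20500 in WT saline mice, 5530 to 17100 in WT Ang II mice, 15100 to 20800 in Plod1-/- saline mice and 2330 to 17000 in Plod1-/- Ang II mice, with all 8 above 0 in every group. Plod1-/- Ang II mouse 1 stood apart from its group by this sum, and WT Ang II mouse 4 was the highest of its own. By 8 macrophage markers WT Ang II mouse 1 stood apart, at 1780 against 303 to 451 in the other 4 mice. Genes of the mitochondrial chromosome took 14.6% to 29.1% of summed FPKM in WT Ang II mice and 8.37% to 14.6% in WT saline mice.

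Of the 8 hosts, 7 passed the filter on low values, which asked that 5 or more of the 10 mice compared have 1 FPKM or more. In whole tissue, fewer cells of a type and less RNA per cell cannot be told apart, and this holds for every level below. In WT saline mice Gas5 had the highest level per length, at 26.2 ± 3.85 FPKM (SD, n = 5), followed by Snhg8 at 20.9 ± 1.74, and the ranges of these neighbours overlapped. Snhg5 at 11.1 ± 1.98, Snhg6 at 10.9 ± 2.14 and Snhg12 at 10.1 ± 1.14 followed with overlapping ranges. Snhg1 at 5.56 ± 0.925 and 1110038B12Rik at 4.70 ± 0.469 were lowest and overlapped each other, and the gaps between Snhg8 and Snhg5 and between Snhg12 and Snhg1 were free of overlap. The summed level of the 7 hosts was 78.2 to 106 FPKM in WT saline mice, 54.5 to 73.7 in WT Ang II mice, 68.4 to 93.8 in Plod1-/- saline mice and 95.1 to 123 in Plod1-/- Ang II mice.

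Snhg3, host of the pair of snoRNAs that act in ribosomal RNA processing rather than modification, was listed at 0 FPKM in 18 of the 20 mice. It stood at 0.0772 in Plod1-/- saline mouse 3 and at 0.0390 in Plod1-/- Ang II mouse 1. Snhg3 lies on the same strand as the protein-coding gene Rcc1, a nuclear exchange factor for the GTPase Ran. Of its 12 distinct exons 7 overlapped Rcc1 exons, and 13.7% of its 986 exonic bases were shared. Rcc1, named after its values were seen, had 2.17 to 3.03 FPKM in the other 3 groups, and in Plod1-/- Ang II mice it had 5.63, 8.24, 11.5, 9.64 and 7.65. How reads were divided between both genes is not given in the sources used here, so the level of Snhg3 is uncertain and it enters no comparison.

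**Figure D1:**
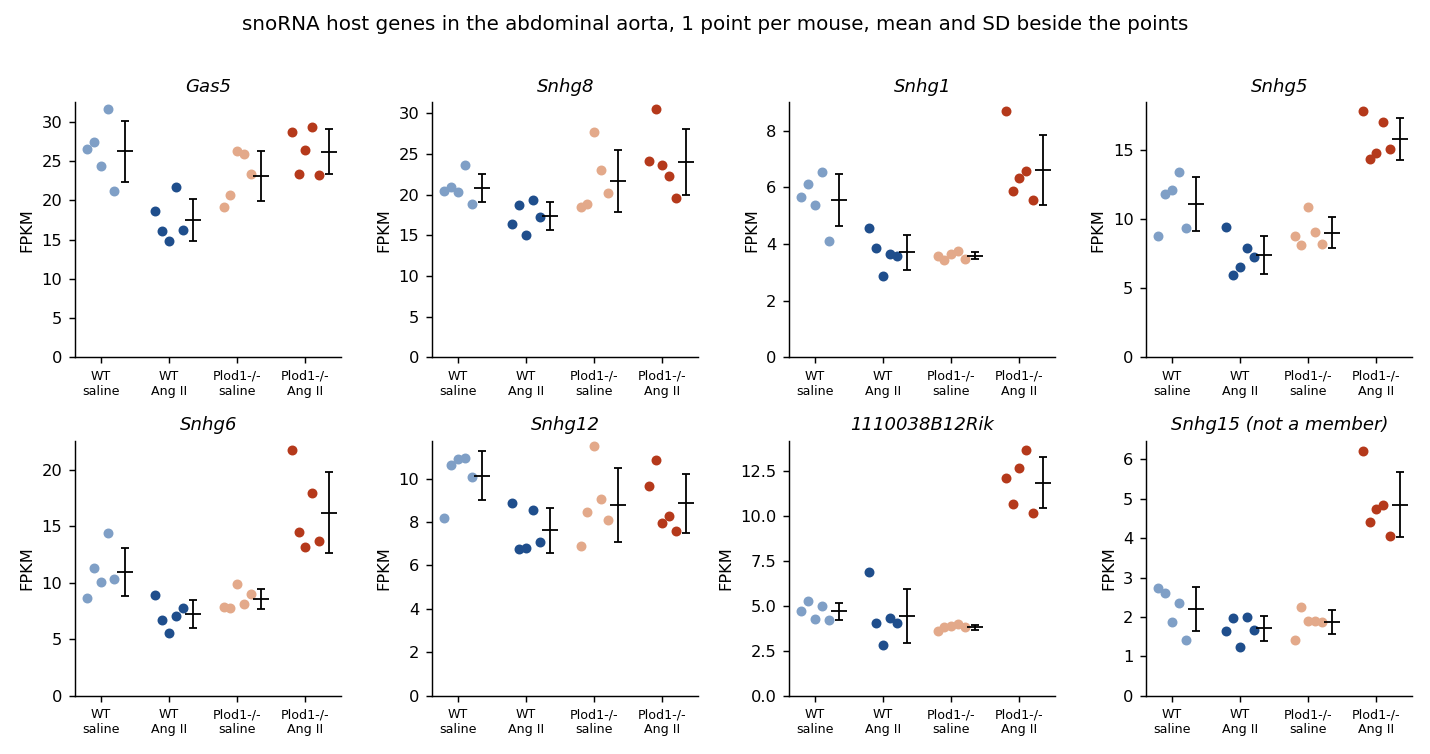
FPKM on linear axes that start at 0 for the 7 hosts above the filter and for Snhg15, a noncoding host outside the 8 genes, in the 4 groups. Points are single mice, and the bar beside each set gives the mean and SD (n = 5). The Plod1-/- Ang II mice lie above the other 15 mice for Snhg5, 1110038B12Rik and Snhg15, whereas Snhg12 overlaps in every pair of groups.

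The question of whether Ang II changed the hosts in WT mice could be tested for all 7. None of these 10 mice entered the contrast that selected 1110038B12Rik, although the hosts were chosen with earlier results of these data known. Gas5, Snhg1, Snhg5, Snhg6 and Snhg12 fell by adjusted p, and none reached the fold used by the study. Gas5, which takes its name from growth-arrested cells and can bind the glucocorticoid receptor, had 26.6, 27.4, 24.4, 31.6 and 21.2 FPKM in WT saline mice and 18.6, 16.1, 14.8, 21.6 and 16.2 in WT Ang II mice. The groups met at their edges, as WT Ang II mouse 4 lay just above WT saline mouse 5. The difference was -0.56 ± 0.13 on the log2(FPKM + 1) scale (standard error, adjusted p = 0.00996, exact two-sided permutation p = 0.0159).

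Snhg6 had 8.63, 11.3, 10.1, 14.4 and 10.3 FPKM in WT saline mice against 8.90, 6.72, 5.56, 7.06 and 7.80 in WT Ang II mice, of which 1 lay inside the saline range. The log2 difference was -0.54 ± 0.15 (adjusted p = 0.0175). Snhg5 had 8.78, 11.9, 12.2, 13.5 and 9.36 FPKM against 9.47, 5.95, 6.55, 7.94 and 7.27, with the overlap again due to WT Ang II mouse 1. Its log2 difference was -0.52 ± 0.15 (adjusted p = 0.0194).

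Snhg1, the gene in which intron-encoded guides without a coding host were recognised, had 5.65, 6.11, 5.36, 6.54 and 4.11 FPKM in WT saline mice against 4.58, 3.85, 2.86, 3.65 and 3.57 in WT Ang II mice. The log2 difference was -0.48 ± 0.13 (adjusted p = 0.0191). Snhg12 had 8.20, 10.6, 10.9, 10.9 and 10.1 FPKM against 8.88, 6.74, 6.80, 8.57 and 7.09, a log2 difference of -0.37 ± 0.12 (adjusted p = 0.0287). The Snhg12 call held under only 8 of 17 alternatives, and its adjusted p was 0.0725 with the replicate number as a block. Of the Ang II group 1 mouse reached into the saline range for Snhg1 and 2 mice did for Snhg12.

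The remaining 2 hosts did not pass. Snhg8 had 20.5, 21.0, 20.3, 23.6 and 18.9 FPKM in WT saline mice and 16.4, 18.8, 15.0, 19.4 and 17.3 in WT Ang II mice, a log2 difference of -0.25 ± 0.10 (adjusted p = 0.0697). 1110038B12Rik had 4.74, 5.29, 4.25, 4.99 and 4.20 FPKM against 6.89, 4.03, 2.82, 4.31 and 4.04, a log2 difference of -0.11 ± 0.17 (adjusted p = 0.617). For this gene WT Ang II mouse 1 was above all saline mice and WT Ang II mice 2, 3 and 5 were below them.

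Counted over the list, 5 of 7 hosts were lower at an adjusted p below 0.05, where 21.5% of 11994 genes tested were lower by the same rule and 16.5% were higher. With the added fold of the study, a log2 difference above 1 in size, 0 of 7 were lower, against 2.28% of all genes, and 0 of 7 were higher, against 6.38%. None of the 7 hosts had groups free of overlap in the lower direction, which 6.88% of all genes had. The median of all genes was itself -0.14, with 62.1% of genes below 0, and the median of the 7 hosts was -0.48. The mitochondrial share differed between the same groups, and with mitochondrial genes left out and FPKM rescaled to equal sums the count of lower hosts was 5, with Gas5 at -0.52. Without WT Ang II mouse 3 the count was 2, without WT Ang II mouse 2 it was 3, without WT Ang II mouse 4 it was 6, and without WT Ang II mouse 1 it was 5.

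Markers of fat cells, which surround the aorta, differed between the same groups. The summed FPKM of 7 adipocyte markers was 90.1 to 526 in WT saline mice and 882 to 5090 in WT Ang II mice, with no overlap and all 7 above 0 in both groups. Of 6 tested, 6 were higher by adjusted p, with a median log2 difference of 4.12, and 6 of the 8 smooth muscle markers were lower, with a median of -0.89. Of all genes 16.5% were higher and 21.5% lower by this rule. Markers of other cells differed too. Of 5 skeletal muscle markers tested 3 were higher, with a median of 2.01, and 2 of 8 macrophage markers were higher, with a median of 0.88. Of 6 endothelial markers 2 were higher and 1 was lower. The part of these cells in the host gene values was not tested.

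**Figure D2:**
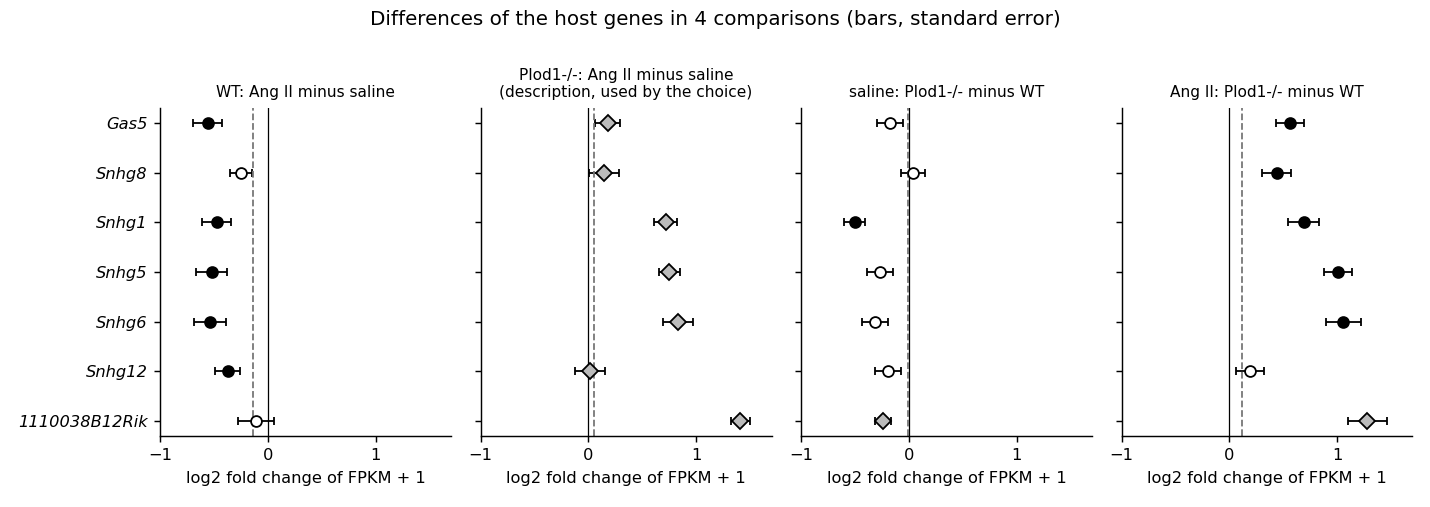
Log2 fold change of FPKM + 1 on the horizontal axis for the 7 hosts in 4 comparisons, with standard error bars. Filled circles passed an adjusted p of 0.05, open circles did not, grey diamonds were not tested, and the dashed line is the median of all genes. In WT mice the 7 values lie between -0.56 and -0.11, and between genotypes under Ang II they lie between 0.19 and 1.28.

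Whether the genotypes differed under Ang II was tested for the 6 hosts other than 1110038B12Rik, with the reserve that the Plod1-/- Ang II mice also served in the contrast that selected that gene. Snhg5 and Snhg6 were about 2-fold higher in Plod1-/- mice, Gas5, Snhg1 and Snhg8 were higher by less, and Snhg12 did not pass. Snhg5 had 17.9, 14.4, 14.8, 17.1 and 15.1 FPKM in Plod1-/- Ang II mice, all above the 5.95 to 9.47 of the WT Ang II mice. The mean ratio was 2.13, and the log2 difference was 1.01 ± 0.13 (adjusted p = 0.00134, exact permutation p = 0.00794, the smallest that 5 against 5 mice allow). Snhg6 had 21.8, 14.5, 13.2, 18.0 and 13.7 FPKM, all above the 5.56 to 8.90 of the WT group, with a mean ratio of 2.25 and a log2 difference of 1.06 ± 0.16 (adjusted p = 0.00223).

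Snhg1 had 8.70, 5.87, 6.33, 6.58 and 5.55 FPKM in Plod1-/- Ang II mice, above every WT Ang II mouse, and a log2 difference of 0.69 ± 0.14 (adjusted p = 0.00671). Gas5 had 28.7, 23.4, 26.5, 29.3 and 23.3, again above the WT range of 14.8 to 21.6, with a log2 difference of 0.56 ± 0.13 (adjusted p = 0.0105). These Gas5 values lay within the range of WT saline mice.

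Snhg8, host of an H/ACA snoRNA, had 24.2, 30.6, 23.6, 22.4 and 19.6 FPKM in Plod1-/- Ang II mice, just above the WT Ang II maximum of 19.4. The log2 difference was 0.44 ± 0.13 (adjusted p = 0.0300). Snhg12, whose 4 snoRNAs are mostly of the H/ACA type, had 9.65, 10.9, 7.95, 8.28 and 7.59 FPKM, which overlapped the WT Ang II mice, and a log2 difference of 0.19 ± 0.13 (adjusted p = 0.280). 1110038B12Rik, given without a test, had 12.1, 10.7, 12.7, 13.7 and 10.2 FPKM in Plod1-/- Ang II mice, a mean ratio of 2.69 to the WT Ang II mice and a log2 difference of 1.28 ± 0.18.

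By adjusted p 5 of the 6 tested hosts were higher, against 20.8% of 12356 genes, and 2 of the 6 also passed the fold, against 7.45%. The same 5 hosts were free of overlap between groups, which 10.4% of genes were in the higher direction. The median of all genes was 0.12. It moved to -0.03 under quantile normalization, where Snhg5 stood at 0.86 and Snhg6 at 0.92, and 0 hosts passed the fold while 4 passed by adjusted p. Snhg5 and Snhg6 sat close to the fold threshold, and their calls by fold were lost without Plod1-/- Ang II mouse 1 (0.97 and 0.95), the library with smooth muscle markers at 17000 and with Xist RNA, as well as without WT Ang II mouse 3. Without Plod1-/- Ang II mouse 4 or WT Ang II mouse 2 the count by fold was 1, and without WT Ang II mouse 1 it was 2. By adjusted p Gas5, Snhg1, Snhg5 and Snhg6 passed under all 18 alternatives tried and Snhg8 under 7 of 18.

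Markers of other cells differed between the same groups. The summed FPKM of 8 macrophage markers was 864 to 4780 in Plod1-/- Ang II mice, 303 to 1780 in WT Ang II mice, 199 to 375 in WT saline mice and 91.2 to 379 in Plod1-/- saline mice, with all 8 above 0 in every group. Of the 8, 8 were higher in Plod1-/- than in WT mice under Ang II by adjusted p, where 20.8% of all genes were higher. The summed FPKM of 6 markers of dividing cells was 11.1 to 67.7 in Plod1-/- Ang II mice and at most 6.47 in the other groups. The sum of 6 fibroblast markers was 1030 to 5690 in Plod1-/- Ang II mice against 451 to 892 in WT Ang II mice. Most of it was collagen, with mean Col1a1 at 1217 against 93.4 FPKM and Col3a1 at 830 against 88.2. Of the 6 fibroblast markers 2 were higher by adjusted p, beside the 20.8% of all genes. A further 2 had a log2 difference below 0, with mean Dcn at 137 against 208 and Dpt at 153 against 162. The sum of 6 red blood cell markers was 763 to 9720 against 185 to 666, and that of 6 neutrophil markers 157 to 726 against 6.76 to 196. The sums of 7 adipocyte markers overlapped, at 452 to 3100 against 882 to 5090, but single markers differed. Of the 7, 6 had a log2 difference below 0 and 1 above. By adjusted p and fold 2 were lower in Plod1-/- mice, as were 453 of the 12356 genes tested. Ucp1 of brown fat had 36.6 to 164.5 FPKM in Plod1-/- Ang II mice against 208 to 1879 in WT Ang II mice. Of 5 skeletal muscle markers tested 3 were also lower by adjusted p and fold, with a median log2 difference of -2.41. The part of these cells in the host gene values was not tested.

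Without Ang II the log2 differences between genotypes ran from -0.50 to 0.04. Of the 6 hosts other than 1110038B12Rik all but Snhg8 were below 0, where 51% of all genes were. The median of all genes was -0.01. These 6 hosts were tested, with the reserve that the Plod1-/- saline mice also served in the contrast that selected 1110038B12Rik. Snhg1 was the only one of the 6 tested hosts to pass, with 3.58, 3.45, 3.66, 3.77 and 3.47 FPKM in Plod1-/- saline mice. All lay below the WT saline minimum of 4.11. The log2 difference was -0.50 ± 0.10 (adjusted p = 0.0233, exact permutation p = 0.00794). Snhg5 (-0.27 ± 0.12, adjusted p = 0.189), Snhg6 (-0.31 ± 0.12, adjusted p = 0.126), Gas5 (-0.18 ± 0.12), Snhg12 (-0.19 ± 0.12) and Snhg8 (0.04 ± 0.11) did not pass. 1110038B12Rik, not tested here, had 3.58, 3.85, 3.89, 3.97 and 3.80 FPKM in Plod1-/- saline mice, below every WT saline mouse, and a log2 difference of -0.24 ± 0.07.

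The background was 3.23% of 11999 genes lower by adjusted p, against 1 of 6 hosts, and 0.408% lower with the fold added, against 0 of 6. Groups were free of overlap in the lower direction for 5.3% of all genes and, among the 6 tested hosts, for Snhg1 alone. The call for Snhg1 lost significance without any of Plod1-/- saline mice 2, 4 and 5 or WT saline mouse 2 (adjusted p between 0.0515 and 0.0579), mouse 5 being the saline library with Xist RNA. With the replicate number as a block its adjusted p was 0.0555.

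In Plod1-/- mice the Ang II difference is a description only. 1110038B12Rik had 3.82 ± 0.145 FPKM with saline and 11.9 ± 1.42 with Ang II, a ratio of 3.11 and a log2 difference of 1.41 ± 0.09. By the ratio of the log2 difference to its standard error it ranked at place 3 among the 12333 genes in the upward direction, between Tnfaip6, a secreted protein of inflamed tissue, at 16.3 and Fam107b at 15.0, with its own ratio at 15.5. By the log2 difference alone it ranked at place 672. The Plod1-/- saline mice spread narrowly, from 3.58 to 3.97 FPKM.

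Snhg6 (0.83 ± 0.14), Snhg5 (0.75 ± 0.10) and Snhg1 (0.72 ± 0.11) were also higher in all 5 Plod1-/- Ang II mice than in all 5 Plod1-/- saline mice. Groups free of overlap in the higher direction were found for 14.2% of all genes. The saline values of Snhg6 were 7.84, 7.82, 9.87, 8.14 and 9.03 FPKM and those of Snhg5 were 8.80, 8.12, 10.9, 9.12 and 8.19. Gas5, at 19.1, 20.7, 26.3, 25.9 and 23.4 FPKM in Plod1-/- saline mice, differed by 0.18 ± 0.12, and Snhg8, at 18.5, 18.9, 27.7, 23.1 and 20.2, by 0.15 ± 0.14. Snhg12, at 6.90, 8.45, 11.5, 9.05 and 8.10 FPKM in Plod1-/- saline mice, differed by 0.02 ± 0.14, a value that went to -0.10 under quantile normalization and to -0.06 with mitochondrial genes left out. With mouse 1 of the Ang II group left out, the values were 1.40 for 1110038B12Rik, 0.73 for Snhg6, 0.71 for Snhg5 and 0.63 for Snhg1.

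The response of Plod1-/- mice minus that of WT mice, again a description, was above 0 for the 6 hosts other than 1110038B12Rik. It was 1.37 ± 0.20 for Snhg6, 1.27 ± 0.18 for Snhg5, 1.19 ± 0.17 for Snhg1, 0.74 ± 0.17 for Gas5, 0.40 ± 0.17 for Snhg8 and 0.39 ± 0.18 for Snhg12, all in log2 units. The 1.52 ± 0.19 of 1110038B12Rik contains the response on which that gene was selected. Over 13263 genes the median was 0.12 and 10.9% exceeded 1. For Snhg5, Snhg6 and Snhg1 the value combined a lower level in WT mice with a higher level in Plod1-/- mice, for Gas5 and Snhg12 it came mostly from the lower level in WT mice, and for 1110038B12Rik it came almost wholly from the Plod1-/- mice.

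**Figure D3:**
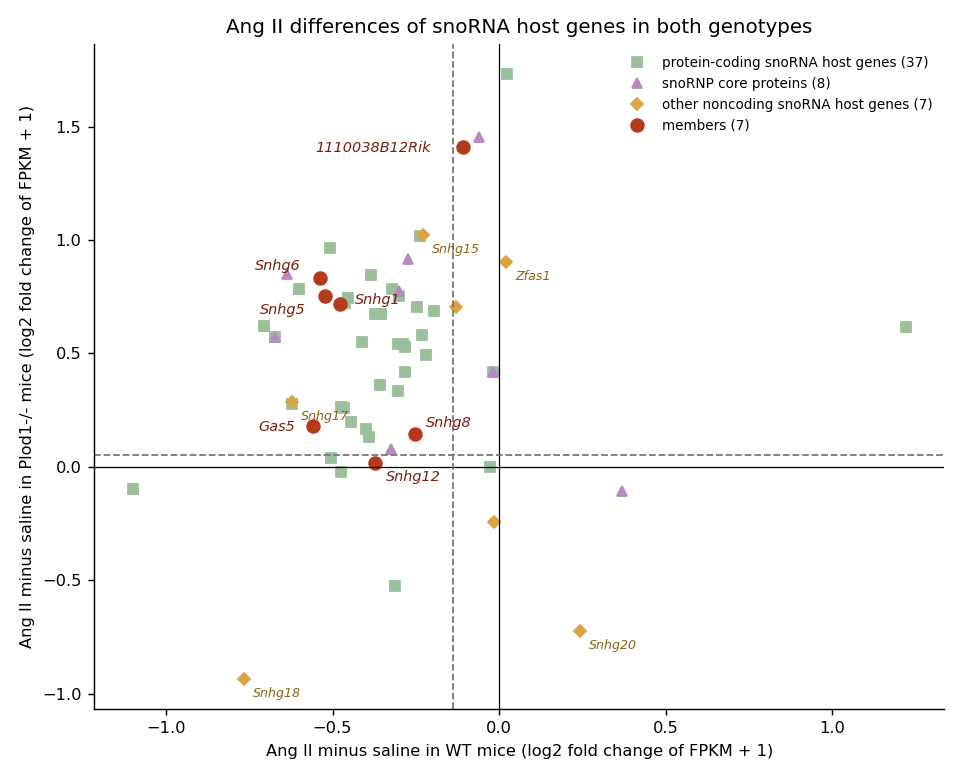
Log2 fold change of FPKM + 1 with Ang II in WT mice (horizontal) against that in Plod1-/- mice (vertical). Points are genes of 4 lists, numbers in the key count those passing the filter in both comparisons, and dashed lines are the medians of all genes. The members Snhg1, Snhg5 and Snhg6 lie at the upper left with many protein-coding hosts, 1110038B12Rik lies highest among the members at 1.41, and Snhg18 lies at the lower left.

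The levels of the 7 hosts were compared with one another across the 20 mice. Pearson's r of log2(FPKM + 1) ranged from 0.14 for Snhg12 with 1110038B12Rik to 0.95 for Snhg5 with Snhg6, with a median of 0.65 over 21 pairs. As deviations from the group means all 21 pairs stayed above 0, from 0.14 to 0.77 with a median of 0.56. The points share libraries, so depth, RNA quality and tissue make-up enter every pair. Snhg5, Snhg6 and Snhg1 were close to one another (0.87 to 0.95), and Snhg12 stood furthest from 1110038B12Rik.

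Outside the list the 5 genes most like the hosts' mean standardised level, of 13256 ranked, were Rps25 (r = 0.97 over 20 mice, 0.92 as deviations from group means), Rpl10a-ps1 (0.95 and 0.85), Rpl34 (0.95 and 0.83), Rps6 (0.95 and 0.88) and Rpl10a (0.94 and 0.85). All are ribosomal protein genes or, for Rpl10a-ps1, a pseudogene that can share reads with Rpl10a, which leaves its level uncertain. Rps25 averaged 125 FPKM in WT saline mice, 94.6 in WT Ang II mice, 117 in Plod1-/- saline mice and 159 in Plod1-/- Ang II mice. An r above 0.8 was found for 3.28% of the ranked genes.

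Other noncoding snoRNA hosts did not all move with the members. Of 15 on the list 12 were in the tables and 7 passed the filter. In WT mice 2 of the 7 fell by adjusted p, where 21.5% of all genes fell, Snhg18 (-0.76 ± 0.20, adjusted p = 0.0142) and Snhg17 (-0.62 ± 0.13, adjusted p = 0.00560), and none rose. In Plod1-/- mice 3 rose by adjusted p, where 23.8% of genes rose, and 2 fell, where 20.1% fell. Snhg15 rose from 1.87 ± 0.297 to 4.85 ± 0.827 FPKM (log2 difference 1.02 ± 0.12, adjusted p = 0.000119), and was the only 1 of the 7 past the fold, against 8.38% of all genes. Zfas1 rose from 5.19 ± 0.675 to 10.6 ± 1.64 FPKM (0.90 ± 0.12, adjusted p = 0.000228). Snhg18 fell from 64.7 ± 5.69 to 34.4 ± 10.6 FPKM (-0.93 ± 0.17, adjusted p = 0.00163) and Snhg20 from 20.1 ± 4.76 to 11.7 ± 2.38 (-0.72 ± 0.17, adjusted p = 0.00709). Snhg18 thus fell with Ang II in both genotypes.

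Snhg11, singled out after its values were seen and below the filter, was uneven among Plod1-/- Ang II mice. It had 0.334, 0.599, 5.42, 13.9 and 5.90 FPKM there and at most 0.651 in the other 15 mice, so 3 of the 5 mice carried the difference.

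Protein-coding snoRNA hosts, mostly ribosomal protein and translation factor genes, mostly differed in the same direction as Snhg1, Snhg5 and Snhg6. All 37 were tested. In WT mice 15 fell and 1 rose by adjusted p, where 21.5% of all genes fell and 16.5% rose, with a median log2 difference of -0.36 beside -0.14 for all genes. Hspa9, a mitochondrial chaperone, rose by 1.22 ± 0.20, Hspa8, a cytosolic chaperone, fell by 1.10 on the log2 scale, and Wdr43, a ribosome assembly factor, fell by 0.70. In Plod1-/- mice 25 rose and 1 fell, where 23.8% of all genes rose and 20.1% fell, with a median of 0.54 beside 0.05 for all genes. Rnf149, a ubiquitin ligase, had the largest value (1.73 ± 0.36, adjusted p = 0.00331) with Ang II levels spread from 2.86 to 16.6 FPKM, followed by Rpsa, a protein of the small ribosomal subunit (1.02 ± 0.18), and Eif4a1, an RNA helicase of translation initiation (0.96 ± 0.09). Between genotypes under Ang II 28 of the 37 were higher, against 20.8% of all genes, with a median of 0.71 beside 0.12.

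The proteins that bind snoRNAs moved in part. Of 8 core proteins 6 rose in Plod1-/- mice with Ang II, where 23.8% of all genes rose, led by Nhp2 of the H/ACA particle (1.46 ± 0.20, adjusted p = 0.000299), Fbl, the methyltransferase of the C/D particle (0.92 ± 0.16, adjusted p = 0.00108), and Nop58 of the C/D particle (0.85 ± 0.09). In WT mice, where 21.5% of all genes fell, Nop56 (-0.67 ± 0.14, adjusted p = 0.00551) and Nop58 (-0.64 ± 0.16, adjusted p = 0.0110) fell, and Nop10 of the H/ACA particle had 0.37 ± 0.16 without passing. Of 9 tested assembly factors 4 rose and 1 fell in Plod1-/- mice, where 20.1% of all genes fell. Naf1, which loads H/ACA proteins, fell by 0.55, Ruvbl2, a helicase of the assembly machinery, rose by 0.54 ± 0.12 and Nolc1, a nucleolar chaperone, rose by 0.48 ± 0.10. In WT mice 3 fell, among them Nolc1 (-0.57 ± 0.15) and Ruvbl1 (-0.45 ± 0.13), and 2 rose, where 16.5% of all genes rose, Pih1d1 being one (0.45 ± 0.15).

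Of 14 nonsense-mediated decay factors 7 fell in WT mice with Ang II, where 21.5% of all genes fell, with the median at -0.37 beside -0.14 for all genes. Smg1, the kinase of the pathway, was among those that fell (-0.59 ± 0.14), and Magoh had -0.45 ± 0.17 without passing. In Plod1-/- mice, where 23.8% of all genes rose and 20.1% fell, 1 rose, Magoh of the exon junction complex (0.51 ± 0.11), and 2 fell, Smg6, the endonuclease of the pathway (-0.64 ± 0.10), and Upf2 (-0.34 ± 0.09). Of 12 genes with transcripts known to be held down by this decay, 6 fell and 1 rose in WT mice. In Plod1-/- mice 2 rose, a share below that of all genes. The largest were Chac1, a glutathione-degrading enzyme, in Plod1-/- mice (1.29 ± 0.22, adjusted p = 0.00112), Gadd45a in Plod1-/- mice (0.81 ± 0.22), and Atf4, a transcription factor of amino acid stress, in WT mice (-0.86 ± 0.20). Atf3 had -1.61 ± 0.64 in WT mice and 0.76 ± 0.44 in Plod1-/- mice without passing, and Tra2b, a splicing factor, fell by 0.82 in WT mice. The gene values do not separate transcripts held down by this decay from other forms of the same gene.

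Of 15 genes for translation factors and other proteins with TOP messenger RNAs, 3 fell in WT mice, a share near the 21.5% of all genes. In Plod1-/- mice 7 rose, against 23.8% of all genes. The medians were -0.26 and 0.10, beside -0.14 and 0.05 for all genes. In WT mice the largest were Hnrnpa1 (-0.65 ± 0.17) and Npm1 (-0.50 ± 0.15), which passed, and Rack1 (-0.37 ± 0.14), which did not. The largest in Plod1-/- mice were Pabpc1, the poly(A)-binding protein (0.87 ± 0.15), Eef1b2 (0.75 ± 0.15) and Hnrnpa1 (0.73 ± 0.13).

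Immediate early genes, which respond to handling and to growth signals within minutes, moved between the same groups. The summed FPKM of 8 of them was 356 to 2140 in WT saline mice, 75.8 to 128 in WT Ang II mice, 131 to 1040 in Plod1-/- saline mice and 409 to 1180 in Plod1-/- Ang II mice. Their part in the host gene values was not tested.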

How the data were processed

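RNA-seq of abdominal aorta was analysed in 20 mice (4 groups of 5). The deposited tables hold FPKM for 43422 Ensembl genes, 1 file a mouse, which the authors made by removing ribosomal reads, aligning with HISAT2, assembling with StringTie and normalizing with cuffquant and cuffnorm. The submitters' processing notes name HISAT2 2.1.0, Bowtie2 2.2.3, HTSeq 0.6.0 and mm10. The kit did not keep strand, so reads of overlapping genes on opposite strands cannot be told apart. Symbols came from GENCODE for 43226 genes.

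From the FPKM, log2(FPKM + 1) was fitted with limma 3.58.1 in R 4.3.3 (eBayes with trend, two-sided, Benjamini-Hochberg over all genes tested), without covariates and within the 2 groups compared, for genes at 1 FPKM or more in at least 5 of the 10 mice. Because the pseudocount of 1 shrinks low genes, fold changes are on that scale. The study's own test, edgeR, was not run because it needs counts. Calls used an adjusted p below 0.05, with or without a log2 difference above 1 in size, the thresholds of the study. With both, 1039 genes were called for Ang II in WT mice, 1714 for Ang II in Plod1-/- mice and 1373 between genotypes under Ang II. The study reported far fewer genes in each of these comparisons, so the calls here are not comparable with its own. The exact permutation test of single genes used the difference of mean log2(FPKM + 1). Values are mean ± SD over 5 mice, or a log2 difference ± its standard error. Mice of a group were treated as separate animals.

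The depth is unknown: relative depth from the steps of 72 low genes was 0.91 to 1.08. The fit was tested on simulated data with known changes.

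The hosts, the gene lists and the comparisons were chosen with earlier results of these data known. Named genes were the 8 hosts, up to 3 genes a list with the largest difference in each genotype's Ang II response, the 5 genes most correlated with the hosts, and Plod1. Alternatives were another pseudocount, no filter, a replicate block, quantile normalization, one fit of all groups, mouse weights and leaving out each mouse. Leaving out mitochondrial genes and the libraries with Xist RNA were added after the data were seen.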

Additional observations from a re-analysis of the deposited data

How the results depend on the processing

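Of the values tested for single hosts, those of Gas5 and Snhg6 in WT mice and of Gas5, Snhg1, Snhg5 and Snhg6 between genotypes under Ang II passed an adjusted p of 0.05 under every alternative tried. Snhg12 in WT mice passed under 8 of 17.

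The number of hosts lower in WT mice by adjusted p was 5 and was 3 without the filter on low values. By the stricter rule it was 0, and with the fold dropped 5. Leaving out 1 mouse gave 2 to 6 by adjusted p. Between genotypes under Ang II the number by fold was 2. It was 0 under quantile normalization, 0 with mitochondrial genes left out, 0 with the libraries with Xist RNA left out and 5 with the fold dropped. It ranged from 0 to 2 with 1 mouse left out. Under saline the number lower by adjusted p was 1. It was 0 without the filter, 0 with the replicate block and 0 with the libraries with Xist RNA left out. It was 0 to 1 with 1 mouse left out, and 1 where the fold was dropped. The median difference between the Ang II responses over the 7 hosts, 1110038B12Rik included, was 1.19, 1.03 under quantile normalization and 1.38 at a pseudocount of 0.1. The causes were not tested. In WT mice 1110038B12Rik turned to 0.0084 without WT Ang II mouse 3 (-0.2534 to 0.0084 with 1 mouse left out), and under saline Snhg8 turned to -0.0483 without Plod1-/- saline mouse 3 (-0.0483 to 0.0907).

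The replicate numbers gave no pairing: at most 2 of 5 same-numbered pairs had a correlation of deviations over 0.1 in any comparison. With the block, the adjusted p was 0.0555 for Snhg1 under saline, 0.0724 for Snhg8 under Ang II and 0.0725 for Snhg12 in WT mice.

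Without counts, the depth behind low values such as those of Snhg3 is unknown.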
